A study of Mus musculus with 4 samples.

Results

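Core histones H2A, H2B, H3 and H4 form the protein spool around which DNA is wound, and in the mouse most of the genes that encode them sit in clusters. The table of ribosome-protected fragments (RPFs, mRNA pieces kept from RNase digestion by the ribosome on them) held 50 such genes among 11598, chosen by symbol alone as every entry named *Hist1* to *Hist4* followed by h2a, h2b, h3 or h4. They comprised 13 H2A, 15 H2B, 10 H3 and 12 H4 genes, of which 1, *Hist3h2bb-ps*, is annotated as a transcribed pseudogene. The *Hist1* cluster on chromosome 13 contributed 41 of them, *Hist2* on chromosome 3 contributed 5, *Hist3* on chromosome 11 contributed 3, and *Hist4* on chromosome 6 contributed 1. All 50 were found in RefSeq (GRCm38.p6) through an older symbol, and 47 were without introns there.

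Most clustered core histone genes are replication-dependent. They are transcribed in S phase to package newly copied DNA, and their mRNAs end in a conserved stem-loop, bound by the stem-loop binding protein SLBP, in place of a poly(A) tail. *Hist1h2aa* and *Hist1h2ba* are the exceptions followed here, since they encode TH2A and TH2B, variants made in testis germ cells that partly take the place of somatic H2A and H2B as spermatocytes enter and pass through meiosis. The last round of DNA replication before meiosis takes place in preleptotene cells, so leptotene and zygotene spermatocytes are past S phase.

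FACS-sorted leptotene/zygotene spermatocytes of 12 dpp testes gave 4 libraries, 2 from control mice (labelled wild type and named littermates in the methods) and 2 from *Eef1g*-cKO mice. In *Eef1g*-cKO, *Stra8*-GFPCre deletes exons of a floxed *Eef1g*, a subunit gene of elongation factor eEF1, in male germ cells from spermatogonia onward. The comparison asked how RPF abundance differed without *Eef1g*. The replicates are described as independent biological replicates, and no poly(A) selection is named in the protocol, which matters for mRNAs without a poly(A) tail.

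Counted reads came to 2479504 and 1384282 in control against 223906 and 407979 in *Eef1g*-cKO, so that 1 read on a gene of 450 bases equalled 0.896 and 1.61 FPKM in control against 9.92 and 5.45 FPKM in *Eef1g*-cKO. FPKM is reads scaled by gene length and by the counted reads of the library. *Eef1g* itself had 27.6 and 26.8 FPKM in control against 0 and 6.26 in *Eef1g*-cKO. Of 19 leptotene/zygotene markers tested, 8 were increased by adjusted p, against 2.87% of all tested genes, and 0 decreased, against 4.97%. By unadjusted p 1 of them, *Rec114*, was decreased, against 16.3% of all tested genes. Of 16 markers of spermatogonia and preleptotene cells, 8 were decreased by adjusted p, against 4.97%, and 0 increased, against 2.87%. *Rhox13* of this list had a log2 fold change of 0.90. The 16 markers summed to 3700 and 4586 RPM (reads scaled to 1000000 counted reads) in control against 1300 and 1279 RPM in *Eef1g*-cKO. The part of this shift in the results below was not tested. From the RPFs of sorted bulk cells alone, fewer cells of a type and less RNA per cell cannot be told apart. Neither can mRNA amount and ribosome load. The study also reports RNA-seq of such sorted cells, RPFs set against mRNA, and a comparable purity of both groups by staining. These data were not used here.

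*Hist1h2ba* and *Hist1h2aa* lie back to back, and the results below turn on them. *Hist1h2ba* runs on the minus strand at chr13:23933725-23934156 and *Hist1h2aa* on the plus strand at chr13:23934437-23934913, each as 1 exon. The 280 bases between both annotated starts, chr13:23934157-23934436 (GRCm38.p6, plus strand, RefSeq), are shown because both genes are read outward from them. The capitals mark the TATAAA letters, the CCAAT letters and ATTTGCAT, the last being the octamer of H2B promoters, on either strand.
*Hist1h2ba*-*Hist1h2aa*: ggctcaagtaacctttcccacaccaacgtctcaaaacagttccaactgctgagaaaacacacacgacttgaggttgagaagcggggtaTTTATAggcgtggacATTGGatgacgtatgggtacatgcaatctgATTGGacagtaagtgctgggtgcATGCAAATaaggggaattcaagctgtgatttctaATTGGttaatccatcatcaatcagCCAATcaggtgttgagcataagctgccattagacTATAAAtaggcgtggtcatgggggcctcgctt
The TATAAA in the direction of *Hist1h2aa* began 32 bases before its annotated start, and the one in the direction of *Hist1h2ba* began 94 bases before that gene's start. The octamer stood once, in the direction of *Hist1h2ba*, beside 4 matches of CCAAT. The match of letters is a description and not evidence that a factor binds.

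Both testis genes differ from the replication-dependent genes in their coding sequence, which decides whether a footprint can be assigned to them. In the 60 bases with the most differences, *Hist1h2aa* and *Hist3h2a*, the H2A gene with the highest mean FPKM after it, differed at 18 positions. *Hist1h2ba* and *Hist1h2bb* differed at 25 of 60 positions. The H4 genes *Hist1h4c* and *Hist1h4a*, shown for contrast, encode the same protein and differed at 8. Capitals mark the positions that differ within a pair, and each stretch is read 5′ to 3′ on the strand of its gene (RefSeq, GRCm38.p6).
*Hist1h2aa*, chr13:23934555-23934614, plus strand: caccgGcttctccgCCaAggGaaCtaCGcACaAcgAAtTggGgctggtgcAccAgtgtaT
*Hist3h2a*, chr11:58954831-58954890, plus strand: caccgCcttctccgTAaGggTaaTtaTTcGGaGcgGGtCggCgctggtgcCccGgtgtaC
*Hist1h2ba*, chr13:23934086-23934145, minus strand: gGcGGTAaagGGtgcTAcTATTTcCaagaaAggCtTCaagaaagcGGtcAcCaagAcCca
*Hist1h2bb*, chr13:23746803-23746862, plus strand: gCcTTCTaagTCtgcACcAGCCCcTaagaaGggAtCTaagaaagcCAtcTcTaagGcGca
*Hist1h4c*, chr13:23698390-23698449, minus strand: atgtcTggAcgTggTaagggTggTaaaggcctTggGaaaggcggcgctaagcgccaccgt
*Hist1h4a*, chr13:23761098-23761157, minus strand: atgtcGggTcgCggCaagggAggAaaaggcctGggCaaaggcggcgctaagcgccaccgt
Over the whole coding sequence the first pair was 83.0% identical, the second 86.2% and the third 96.2%.

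The most abundant core histone mRNA on ribosomes was *Hist1h2ba*, which ranked 9 of 11598 genes by mean FPKM in control and 3 in *Eef1g*-cKO. *Hist1h2aa* ranked 43 in control and 8 in *Eef1g*-cKO. The levels of the members spanned a wide range, from a mean over the 4 libraries of 4.50 FPKM for *Hist2h3b* to 13524 FPKM for *Hist1h2ba*. By family the median of these means was 840 FPKM for H4, 118 for H2A, 78.0 for H2B and 67.0 for H3. Means above 1000 FPKM were found for 4 H2A, 4 H2B and 4 H4 genes and for 0 H3 genes, whose highest mean was the 292 FPKM of *Hist1h3d*. In 6 genes a library had 0 reads.

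**Figure D1:**
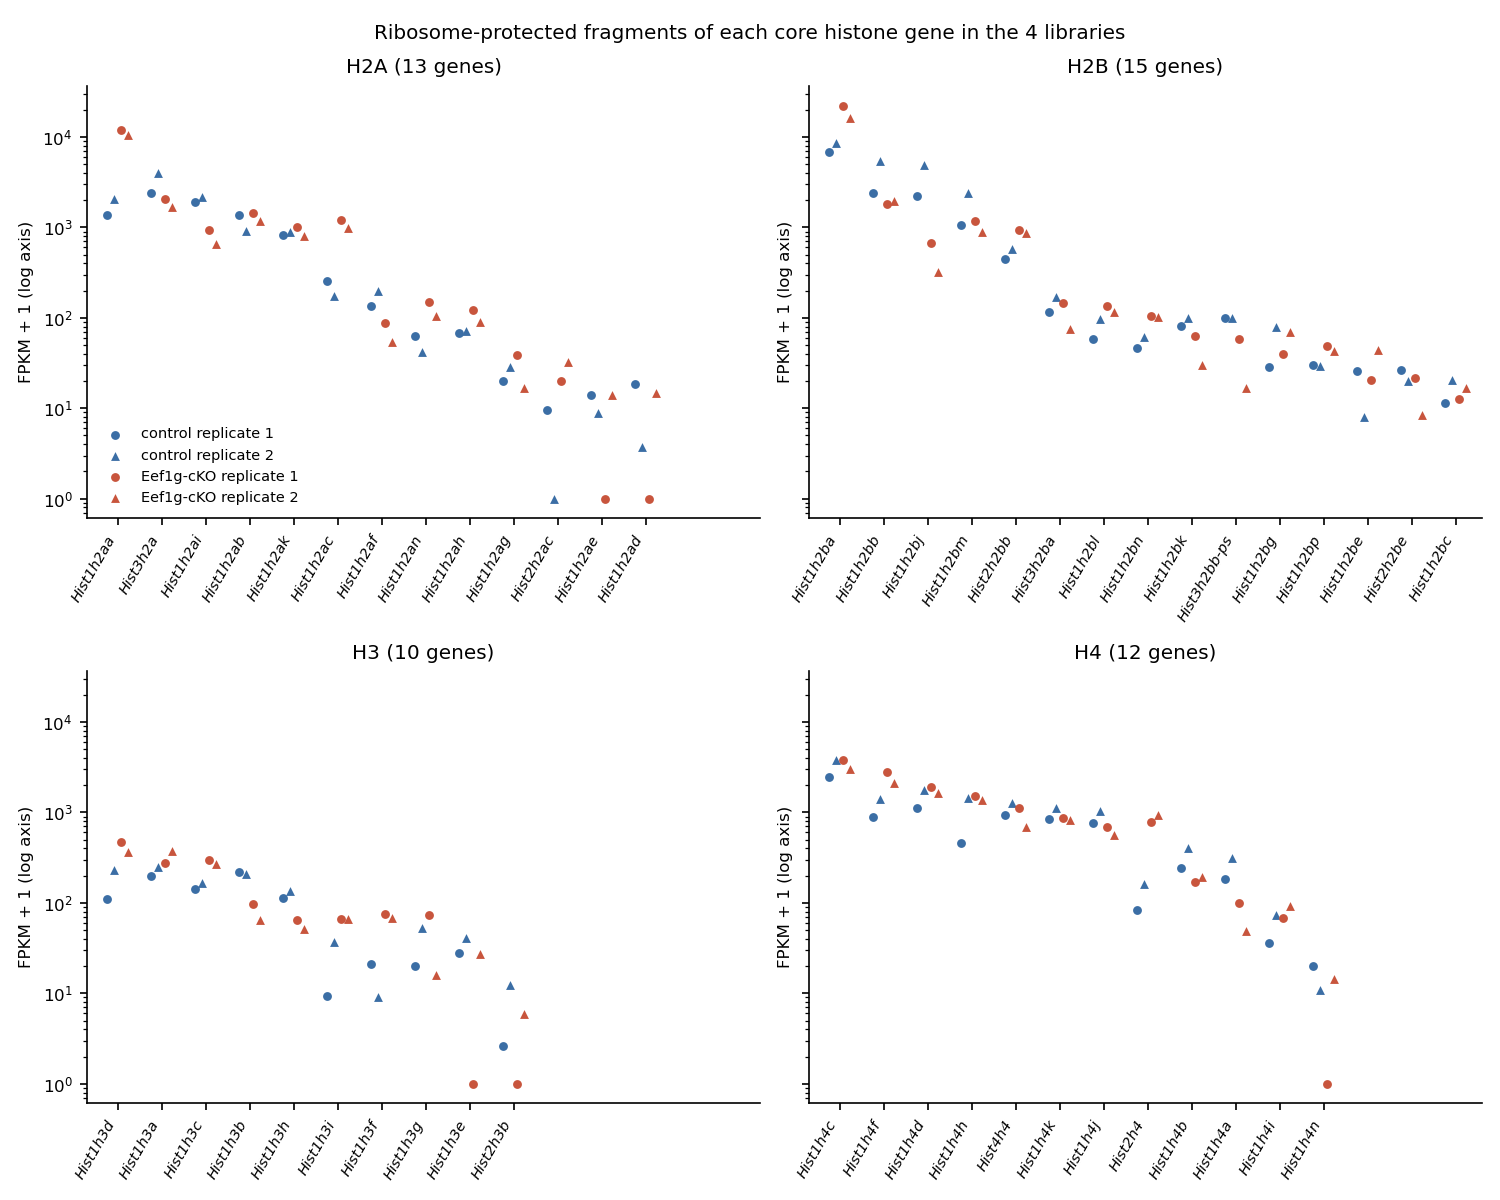
Each point is 1 gene in 1 library, with FPKM + 1 on a log axis, blue for control and red for *Eef1g*-cKO, circles for replicate 1 and triangles for replicate 2. Genes are ordered within a family by their mean FPKM over the 4 libraries. *Hist1h2aa*, *Hist1h2ac*, *Hist2h4* and *Hist1h3f* have both red points well above both blue points, and *Hist1h2bj* has both below.

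The comparison used limma on log2(FPKM + 1) across the 10475 genes whose mean was 1 FPKM or more, which included all 50 members, and called a gene at p under 0.05 and a log2 fold change beyond 1 in either direction. By adjusted p (Benjamini-Hochberg over all tested genes), 4 members were increased in *Eef1g*-cKO, *Hist1h2aa*, *Hist1h2ac*, *Hist2h4* and *Hist1h3f*, against 2.87% of all tested genes, and 4 were decreased, *Hist1h2ai*, *Hist1h2bj*, *Hist1h3b* and *Hist1h3h*, against 4.97%. By unadjusted p, 10 of 50 were increased, against 7.32% of all genes, and 8 of 50 were decreased, against 16.3%. With libraries centred on their median, 13 members were increased and 6 decreased by unadjusted p, against 11% and 12.8% of all genes, and 8 and 2 by adjusted p, against 4.97% and 3.66%. The edgeR quasi-likelihood test on the recovered reads tested 45 members and called 8 increased, against 8.75%, and 6 decreased, against 11.2%. The groups did not overlap for 30 members, with *Eef1g*-cKO the higher for 17 (24.6% of all tested genes) and the lower for 13 (37.7%). The median log2 fold change was 0.09 over the members and -0.23 over all tested genes.

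No family moved as a block, and by unadjusted p each held genes called in both directions. Of 13 H2A genes 4 were increased and 2 decreased, and of 15 H2B genes 1 and 3. Of 10 H3 genes 3 were increased and 2 decreased, and of 12 H4 genes 2 and 1. Over all tested genes the shares were 7.32% increased and 16.3% decreased. By adjusted p in the main fit, 0 H2B genes were increased and 0 H4 genes were decreased. The medians of the log2 fold changes were 0.09 for H2A, -0.08 for H2B, 0.30 for H3 and -0.02 for H4. The SD of the log2 fold changes was 1.39 over the members and 1.10 over all tested genes.

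Control replicate 2 was above control replicate 1 for 37 of 50 members, with a median difference of 0.44 on the log2(FPKM + 1) scale beside 0.05 over all tested genes. Leaving out control replicate 1, and again leaving out control replicate 2, limma called 0 genes of the whole table by adjusted p, members included. By unadjusted p, 6 members were then increased and 7 decreased without control replicate 1, against 5.23% and 9.67% of all genes. Without control replicate 2, 11 were increased and 0 decreased, against 4.57% and 7.59%. Without *Eef1g*-cKO replicate 1 the adjusted p called 5 members increased and 8 decreased, against 3.06% and 10.4% of all genes, and without *Eef1g*-cKO replicate 2 it called 6 and 5, against 5.13% and 13.7%. Over the 4 fits that each left out 1 library, *Hist1h2aa* had log2 fold changes between 2.45 and 3.03, *Hist2h4* between 2.40 and 3.35, and *Hist1h2bj* between -3.38 and -2.27.

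**Figure D2:**
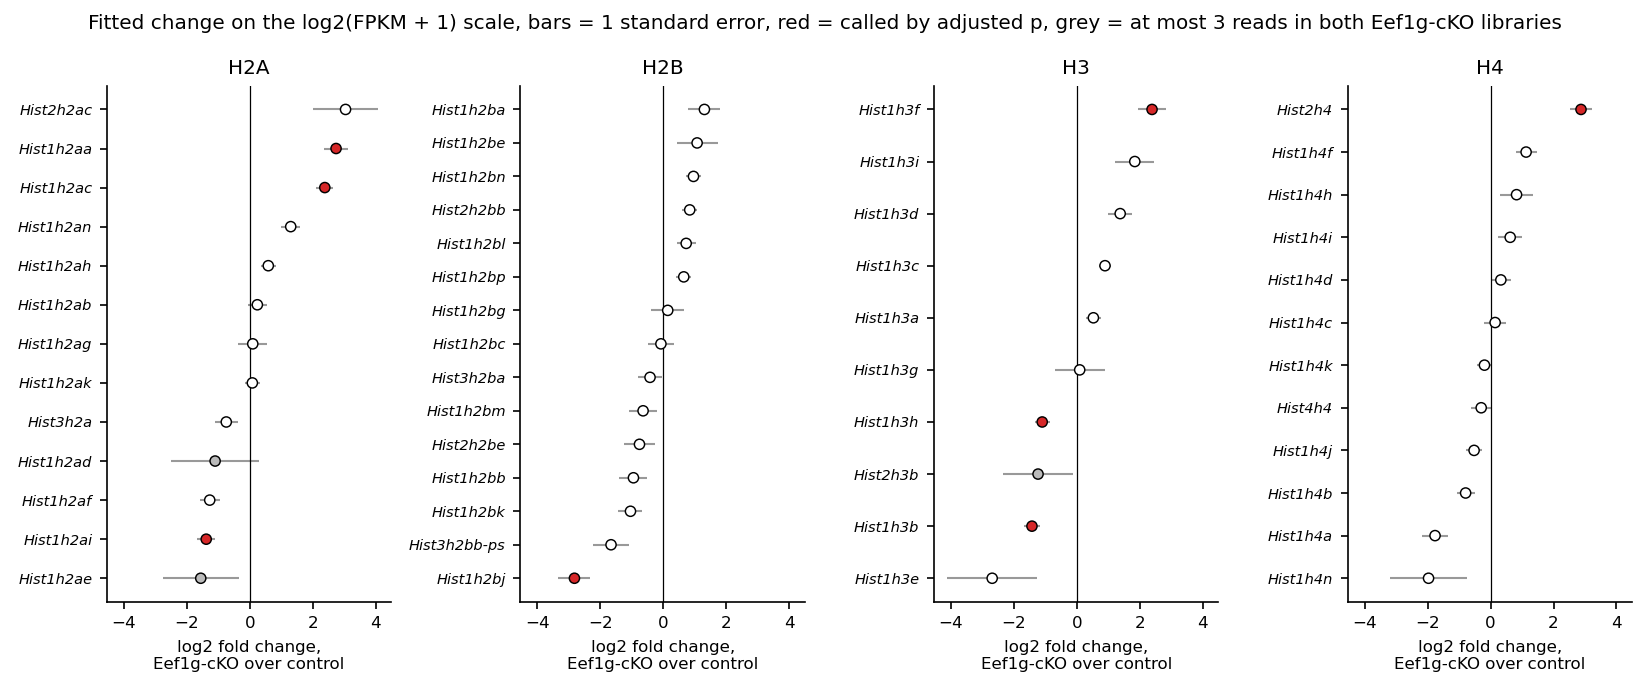
The log2 fold change of each gene, *Eef1g*-cKO over control, is drawn with its standard error on the log2(FPKM + 1) scale, in a panel per family and ordered by size. The 8 genes in red passed the adjusted p, and the 3 in grey had no more than 3 reads in either *Eef1g*-cKO library. Each panel has genes on both sides of 0.

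Among the H2A genes, *Hist1h2aa* had the highest mean FPKM. Its FPKM were 1371 and 2044 in control against 12015 and 10412 in *Eef1g*-cKO. The groups were well apart, with 1707 ± 476 FPKM in control and 11213 ± 1134 in *Eef1g*-cKO (SD, n = 2 each), and the log2 fold change was 2.74 (standard error 0.37, limma adjusted p = 0.0296). The read counts behind these values were 1536 and 1279 in control against 1216 and 1920 in *Eef1g*-cKO, so that counting error was small in every library.

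*Hist1h2ac*, a replication-dependent H2A gene, had 253 and 172 FPKM in control against 1211 and 986 in *Eef1g*-cKO. It rose, with a log2 fold change at 2.38 (standard error 0.27, limma adjusted p = 0.0225). In the opposite direction, *Hist1h2ai* had 1924 and 2159 FPKM in control against 927 and 657 in *Eef1g*-cKO, a difference of -1.38 on the log2 scale (standard error 0.28, limma adjusted p = 0.0454), which was not called with libraries centred on their median (limma adjusted p = 0.0548). The coding sequences of both are close to those of other H2A genes, 99.0% identical to *Hist1h2ag* for *Hist1h2ac* and 98.7% for *Hist1h2ai*, so reads may have been shared with other copies. *Hist3h2a*, at chr11:58954685-58955192 on the plus strand, had 2406 and 4010 FPKM in control against 2057 and 1665 in *Eef1g*-cKO, with both *Eef1g*-cKO values lower but a log2 fold change of -0.75 that missed the call (limma adjusted p = 0.221). Its exon overlaps an exon of *Trim17* on the same strand, and *Trim17* stood between 1.46 and 2.66 FPKM in the 4 libraries.

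*Hist1h2ab* and *Hist1h2ak* overlapped between groups, at 1368 and 904 against 1450 and 1189 FPKM for the former and 820 and 881 against 1017 and 796 FPKM for the latter. *Hist1h2an*, at 62.3 and 40.4 against 150 and 104 FPKM, and *Hist1h2af*, at 135 and 198 against 85.9 and 52.4 FPKM, moved in opposite directions by log2 fold changes of 1.30 and -1.27. Each passed by unadjusted p and in edgeR (edgeR adjusted p = 0.0374 and 0.0333) but not by adjusted p in the main limma fit (0.0572 and 0.0648). In *Eef1g*-cKO they had 15 and 19 reads for *Hist1h2an* and 9 and 10 reads for *Hist1h2af*. *Hist2h2ac* had the largest fitted change of any member, 3.04 on the log2 scale, but on 10 and 0 reads in control against 2 and 6 reads in *Eef1g*-cKO, and its standard error was 1.04 (limma adjusted p = 0.117). *Hist1h2ae*, with 18 and 6 reads against 0 and 3, and *Hist1h2ad*, with 23 and 2 reads against 0 and 3, were too thinly covered for a fold change.

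Of the H2B genes, *Hist1h2ba* had 6874 and 8672 FPKM in control against 22176 and 16375 in *Eef1g*-cKO. The groups did not overlap, and the means were 7773 ± 1271 and 19275 ± 4102 FPKM (SD, n = 2 each). The log2 fold change was 1.30 (standard error 0.51), which passed the unadjusted but not the adjusted p in limma (adjusted p = 0.154) and passed in edgeR (adjusted p = 2.89e-04) and DESeq2 (adjusted p = 8.20e-08). No other H2B gene was called increased in the main limma fit or in edgeR. With libraries centred on their median, *Hist1h2bn* and *Hist2h2bb* had log2 fold changes of 1.17 and 1.05, beyond the fold threshold.

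The 3 replication-dependent H2B genes with the most RPFs had lower means in *Eef1g*-cKO, to differing degrees. *Hist1h2bj* had 2249 and 4851 FPKM in control against 677 and 320 in *Eef1g*-cKO, and fell by 2.82 on the log2 scale (standard error 0.51, limma adjusted p = 0.0379). *Hist1h2bb* had 2419 and 5452 FPKM in control against 1805 and 1956 in *Eef1g*-cKO, a difference of -0.95 on the log2 scale (standard error 0.44, limma adjusted p = 0.211). *Hist1h2bm* overlapped between groups, at 1064 and 2423 FPKM against 1174 and 898.

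In these 3 genes control replicate 2 was above control replicate 1 by a factor of more than 2. *Hist1h2bk* had 80.7 and 99.7 FPKM against 62.5 and 29.4, and *Hist3h2bb-ps*, the pseudogene, had 98.9 and 97.9 against 57.6 and 15.8, and both were decreased by unadjusted p in limma (adjusted p = 0.134 and 0.116). Their *Eef1g*-cKO values rested on 7 and 6 reads for *Hist1h2bk* and on 6 and 3 reads for *Hist3h2bb-ps*. In edgeR *Hist3h2bb-ps* was called (adjusted p = 0.0479) and *Hist1h2bk* was not (adjusted p = 0.148). In the *Hist2* cluster *Hist2h2bb* was higher in *Eef1g*-cKO, at 442 and 573 against 924 and 875 FPKM, a difference of 0.84 on the log2 scale (standard error 0.24, limma adjusted p = 0.0792) that lay below the fold threshold in the main fit. With libraries centred on their median it was 1.05. The other 8 H2B genes reached at most 170 FPKM in any library. Their log2 fold changes in the main fit ran from -0.76 to 1.07, and none was called there or in edgeR.

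Set against the other genes of their families, both testis genes gained share. *Hist1h2aa* took 15.1% and 18.1% of all H2A reads in control against 60.6% and 62.7% in *Eef1g*-cKO. The means were 16.6 ± 2.14% and 61.7 ± 1.44% (SD, n = 2 each), and the 95% Wilson intervals of single libraries, which cover counting error only, were within 58.5% to 64.4% in *Eef1g*-cKO. *Hist1h2ba* took 47.9% and 36.3% of H2B reads in control against 78.7% and 75.4% in *Eef1g*-cKO, with means of 42.1 ± 8.20% and 77.1 ± 2.37% (SD, n = 2 each). For neither gene did the shares of the groups overlap.

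On the log2 scale, the ratio of *Hist1h2aa* to the other 12 H2A genes was higher by 3.02 in *Eef1g*-cKO than in control, and that of *Hist1h2ba* to the other 14 H2B genes by 2.22. The exact two-sided permutation test over the 4 libraries gave p = 0.333 for each, the smallest value that 2 against 2 libraries allow, so this design could not reach a threshold of 0.05. Leaving out any 1 library kept the differences between 2.86 and 3.18 for *Hist1h2aa* and between 1.87 and 2.56 for *Hist1h2ba*.

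The sums of reads separate what the testis genes added from what the remaining genes did. H2A reads summed to 4113 and 5107 RPM in control against 8955 and 7508 RPM in *Eef1g*-cKO, a ratio of the means of 1.79. Without *Hist1h2aa* they summed to 3493 and 4183 RPM in control against 3524 and 2802 RPM in *Eef1g*-cKO, which overlapped, with a ratio of 0.824. The higher H2A sum was seen with *Hist1h2aa* included and not without it.

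H2B reads summed to 6203 and 10330 RPM in control against 12166 and 9383 RPM in *Eef1g*-cKO, which overlapped. Without *Hist1h2ba* the sums were 3234 and 6583 RPM in control against 2586 and 2309 RPM in *Eef1g*-cKO, so both *Eef1g*-cKO libraries lay below both control libraries, with a ratio of the means of 0.499. The control libraries differed from each other by more than control replicate 1 differed from either *Eef1g*-cKO library.

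**Figure D3:**
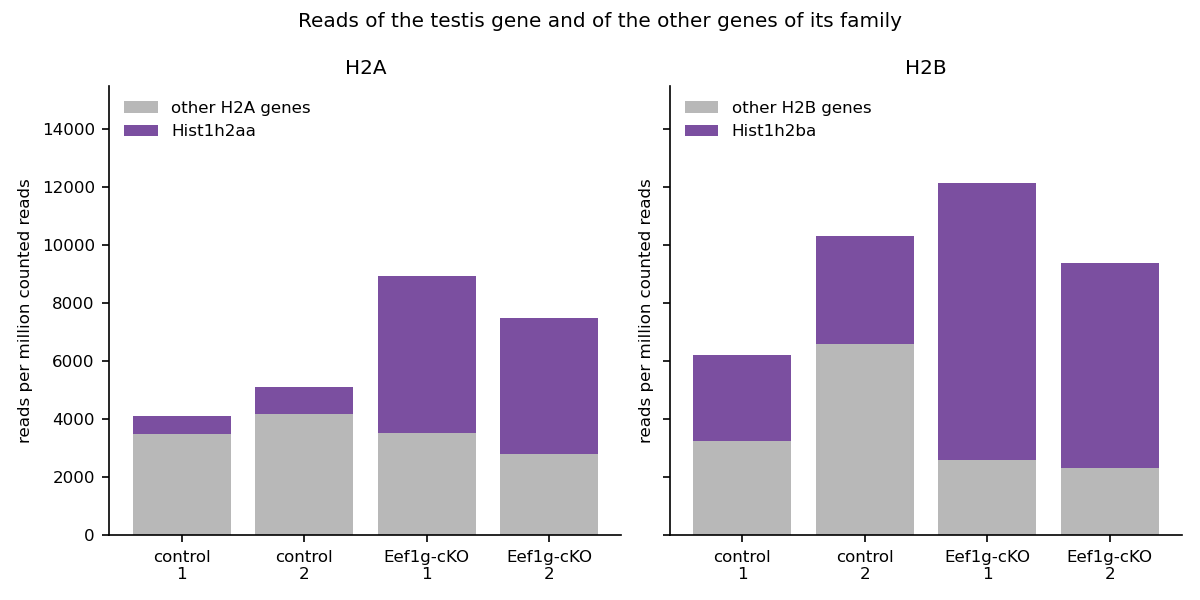
Bars give RPM in each library, from 0, with the testis gene in purple stacked on the sum of the other genes of its family in grey. In H2A the grey part is between 2802 and 4183 RPM in all 4 libraries while the purple part is taller in *Eef1g*-cKO. In H2B the grey part is lower and the purple part taller in *Eef1g*-cKO.

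The 10 H3 genes had the lowest family sum, 422 and 556 RPM in control against 728 and 667 RPM in *Eef1g*-cKO. The ratio of the means was 1.43, without overlap. The H3 genes made up 2.85 ± 0.279% of core histone reads in control against 2.86 ± 0.250% in *Eef1g*-cKO (SD, n = 2 each). The highest share of coding windows found once in the genome, described below, was 21.5% among H3 genes. It was 87.8% for H2A, 91.2% for H2B and 98.9% for H4. Whether H3 reads that fit several copies were left out of these sums was not tested. *Hist1h3f* had 20.1 and 8.0 FPKM in control against 74.2 and 67.9 in *Eef1g*-cKO, from 45 and 10 reads against 15 and 25. It rose, with a log2 fold change at 2.38 (standard error 0.43, limma adjusted p = 0.0379).

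*Hist1h3b* went the other way, with 217 and 210 FPKM in control against 96.9 and 63.8 in *Eef1g*-cKO (log2 fold change -1.43, standard error 0.26, limma adjusted p = 0.0379), and was called in edgeR (adjusted p = 0.00877) but not in DESeq2 (adjusted p = 0.0559). Its *Eef1g*-cKO values rested on 10 and 12 reads. *Hist1h3h* had 112 and 135 FPKM in control against 64.1 and 50.2 in *Eef1g*-cKO, the latter on 7 and 10 reads (log2 fold change -1.10, standard error 0.23, limma adjusted p = 0.0482). That call was lost in edgeR (adjusted p = 0.0760), in DESeq2 (adjusted p = 0.265) and with libraries centred on their median, where the log2 fold change was -0.89. Of the more abundant H3 genes, *Hist1h3d* had 110 and 228 FPKM against 470 and 360 and was called by unadjusted p and in edgeR (log2 fold change 1.37, limma adjusted p = 0.0759, edgeR adjusted p = 0.00272).

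*Hist1h3c*, at 142 and 164 against 298 and 271 FPKM, and *Hist1h3a*, at 198 and 250 against 276 and 371 FPKM, were both higher in *Eef1g*-cKO without overlap but by less than the fold threshold in the main fit, 0.89 and 0.52 on the log2 scale. With libraries centred on their median, *Hist1h3c* stood at 1.10, beyond the threshold. *Hist1h3i* was increased by unadjusted p, at 8.35 and 35.9 against 64.7 and 66.0 FPKM, but not by adjusted p in the main fit or in edgeR (limma adjusted p = 0.115, edgeR adjusted p = 0.0686). It had 10 and 24 reads in control against 7 and 13 in *Eef1g*-cKO. *Hist1h3e* had 31 and 26 reads in control against 0 and 5 in *Eef1g*-cKO, and its log2 fold change of -2.69 carried a standard error of 1.44. *Hist2h3b* had 2 and 8 reads against 0 and 1 and is given no fold change.

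The H4 genes all encode the same protein, so their sum may be read as the RPFs of 1 product. This sum was 3100 and 4941 RPM in control against 5301 and 4410 RPM in *Eef1g*-cKO, which overlapped, with a ratio of the means of 1.21. *Hist1h4c*, the most abundant, had 2480 and 3758 FPKM in control against 3787 and 3013 in *Eef1g*-cKO, at a log2 fold change near 0, 0.15 (standard error 0.36, limma adjusted p = 0.807) that turned negative without control replicate 1 or without *Eef1g*-cKO replicate 1.

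Against this, *Hist2h4*, on the minus strand at chr3:96262934-96263317, had 83.0 and 162 FPKM in control against 791 and 926 in *Eef1g*-cKO. It rose, with a log2 fold change at 2.87 (standard error 0.34, limma adjusted p = 0.0253), the largest of any member with at least 10 reads in every library. *Hist1h4f* had 892 and 1394 FPKM against 2819 and 2116 and was called by unadjusted p and in edgeR (log2 fold change 1.13, limma adjusted p = 0.0882, edgeR adjusted p = 0.00132).

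*Hist1h4a*, which shares 97.4% of its coding sequence with *Hist1h4f*, had 181 and 310 FPKM against 98.2 and 48.5, a log2 fold change of -1.76 called by unadjusted p and in edgeR (limma adjusted p = 0.0575, edgeR adjusted p = 0.00417). Its *Eef1g*-cKO values rested on 10 and 9 reads. *Hist1h4d*, at 1112 and 1775 against 1905 and 1632 FPKM, and *Hist1h4h*, at 456 and 1436 against 1520 and 1358 FPKM, overlapped. *Hist4h4*, which has 99.3% of its exon windows to itself as described below, had 929 and 1257 FPKM against 1109 and 698 (log2 fold change -0.30, standard error 0.32, limma adjusted p = 0.562).

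The clusters, each a separate place in the genome, can be set side by side as sums. The *Hist1* genes summed to 11788 and 17822 RPM in control against 24702 and 19950 RPM in *Eef1g*-cKO, higher without overlap. Without both testis genes they summed to 8199 and 13151 RPM against 9692 and 8170 RPM, which overlapped. The 5 *Hist2* genes summed to 321 and 399 RPM in control against 822 and 824 RPM in *Eef1g*-cKO, higher without overlap. The 3 *Hist3* genes were lower without overlap, at 1321 and 2161 RPM in control against 1139 and 887 RPM. In each library *Hist2h2bb* had the most reads of the *Hist2* genes and *Hist3h2a* of the *Hist3* genes.

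In 10 places an H2A and an H2B gene started back to back within 500 bases, as *Hist1h2aa* and *Hist1h2ba* do. Of the 9 pairs without a gene too thinly covered for a fold change, 4 had log2 fold changes of the same sign and 5 of opposite sign, and in 3 of these pairs a gene lay within 1 standard error of 0. With libraries centred on their median the counts were 5 and 4, as *Hist1h2bc* then lay above 0. *Hist1h2aa* and *Hist1h2ba*, at 2.74 and 1.30, were the only pair in which both were called increased by unadjusted p. *Hist1h2ac* rose while its partner *Hist1h2bc* stood at -0.08, on 20 and 21 reads in control against 2 and 5 in *Eef1g*-cKO. *Hist1h2bj* fell while its partner *Hist1h2ag* stood at 0.09, and *Hist1h2ai* fell while its partner *Hist1h2bl* stood at 0.72. These are descriptions, and no test of the pairs was run.

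**Figure D4:**
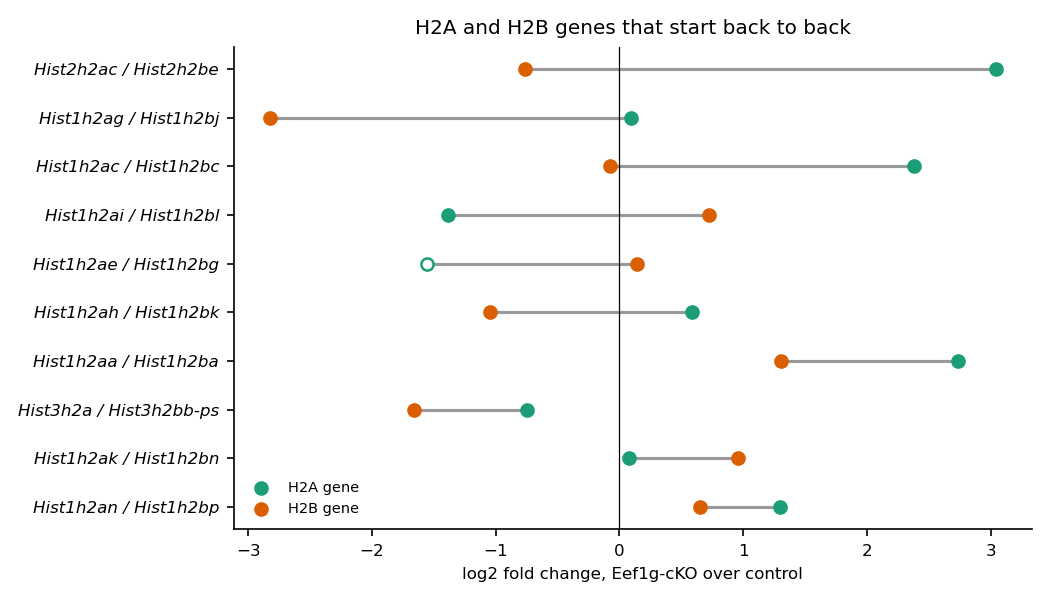
Each row is a pair of genes that start back to back, with the log2 fold change of the H2A gene in green and of the H2B gene in orange, joined by a line. The hollow point, *Hist1h2ae*, had no more than 3 reads in either *Eef1g*-cKO library. Leaving out the row with that point, the line crosses 0 in 5 of 9 rows, and *Hist1h2aa* with *Hist1h2ba* lies wholly to the right of 1.

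How far these values belong to single genes depends on sequence, since footprints of 26 to 34 nt were selected and many copies are nearly identical. Of all 30-base windows in the exons of a member, a median of 36.8% occurred once in the genome (range 5.60% to 99.3%). In the coding sequence, where ribosomes sit, the median was 15.7% over the 49 coding members. By family the medians were 11.5% for H2A, 17.4% for H2B, 12.4% for H3 and 21.9% for H4. How reads that map to several copies were counted is not given in the sources used here.

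Only 6 members had at least 80% of their coding windows to themselves, *Hist1h2aa* (87.8%), *Hist3h2a* (80.5%), *Hist2h2bb* (91.2%), *Hist2h2be* (80.1%), *Hist2h4* (86.2%) and *Hist4h4* (98.9%). Of the 8 genes called by adjusted p, *Hist1h2aa* and *Hist2h4* were in this set. For *Hist1h2ba* the share was 55.5%. It was 11.5% for *Hist1h2ac*, 15.7% for *Hist1h3f*, 7.70% for *Hist1h2ai*, 17.0% for *Hist1h2bj*, 5.0% for *Hist1h3b* and 5.80% for *Hist1h3h*. The values of *Hist1h2ba* and of these 6 genes may therefore contain or lack reads of other copies.

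At the other end, 4 genes had no coding window to themselves, *Hist1h2ad*, *Hist1h2ag*, *Hist1h2bc* and *Hist1h4n*, and these reached at most 37.8 FPKM in any library. Across the 49 genes the share of unique coding windows and the mean FPKM went together (Spearman's rho 0.61), whereas with the log2 fold change rho was 0.26 and with its size -0.12. These are correlations over genes that share libraries and reads, given as a description. Levels of nearly identical genes are therefore uncertain, and family sums are too if reads that fit several copies were left out.

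**Figure D5:**
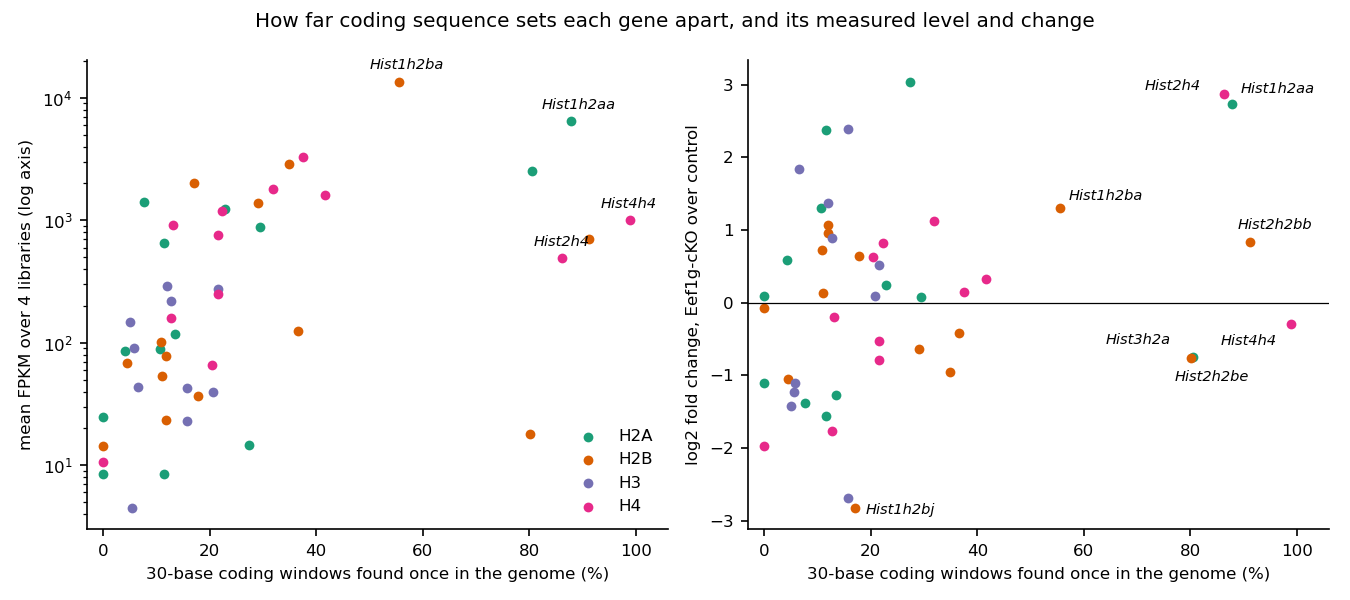
Both panels have the percent of 30-base coding windows that occur once in the genome on the horizontal axis, with 1 point per coding gene, coloured by family. The left panel gives the mean FPKM on a log axis and the right panel the log2 fold change. *Hist1h2aa* and *Hist2h4* lie at the upper right of the right panel, and most other genes lie at or below 41.7% with changes on both sides of 0.

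The stem-loop that ends replication-dependent mRNAs was looked for in the 150 bases after the stop codon, as the letters GGNNCTTTTCAGNNCC, GGNNCTTCTCAGNNCC or GGNNCTCTTCAGNNCC on the sense strand. It was found in 35 of 49 coding members and in 0.37% of the 11206 genes of the table with a coding sequence. The forms found follow with the 4 bases of the loop in capitals (RefSeq, GRCm38.p6), and they occurred in 25, 7, 2 and 1 members in this order.
*Hist1h2aa*, chr13:23934891-23934906, plus strand: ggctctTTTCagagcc
*Hist1h4c*, chr13:23698089-23698104, minus strand: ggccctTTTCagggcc
*Hist1h4j*, chr13:21735437-21735452, plus strand: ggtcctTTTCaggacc
*Hist1h4a*, chr13:23760800-23760815, minus strand: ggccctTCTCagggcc
Testis gene *Hist1h2aa* carried the most frequent form, 40 bases after its stop codon, while *Hist1h2ba* had no match in this window. The median log2 fold change was -0.08 over the 35 members with a match and 0.69 over the 14 coding members without one. Of these 14, 10 stood above 0, among them *Hist1h2ba*, *Hist2h4* and *Hist1h3f*. The 4 below 0 were *Hist1h2bb*, *Hist1h2bk*, *Hist2h2be* and *Hist1h3e*. Only the 3 letter patterns above were searched, so a gene without a match may still have a stem-loop.

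The promoter windows, 250 bases before to 50 after each annotated start, were at hand for 44 members with 45 promoters. TATAAA stood on either strand in 60% of them and in 13.6% of all 32851 promoters, CCAAT in 82.2% and 37.4%, and the octamer ATTTGCAT in 31.1% and 1.74%. The octamer was present for both testis genes, which share it, and the median log2 fold change was 0.41 over the 14 members with it and -0.06 over the 30 without it. A match of letters is not a binding site.

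Genes outside the clusters were read from the same fit. Of 39 DNA replication genes tested, 14 were decreased and 1 increased by unadjusted p, against 16.3% and 7.32% of all genes. By adjusted p 9 were decreased, against 4.97%, and the median log2 fold change was -0.59 beside -0.23 for all genes. *Mcm2*, a subunit of the replicative helicase, went from 171 and 235 FPKM to 46.4 and 48.0 (log2 fold change -2.06, limma adjusted p = 0.0225). *Tk1*, the thymidine kinase of S phase, had 69 and 45 reads in control but 1 and 1 in *Eef1g*-cKO, too few for a fold change, and was called in limma (adjusted p = 0.0307) and not in DESeq2 (adjusted p = 0.0854). *Pcna*, the replication clamp, was at 73.6 and 92.3 against 63.8 and 60.3 FPKM and was not called (limma adjusted p = 0.265). The 48 members other than the testis genes summed to 10249 and 16264 RPM in control against 12139 and 10187 RPM in *Eef1g*-cKO, which overlapped.

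The list of replacement variants held 9 genes of histone variants whose symbols fall outside the *Hist1* to *Hist4* pattern. Of these, 3 were decreased by unadjusted p, *H2afj*, *H3f3a* and *Cenpa*, against 16.3% of all genes, and 0 increased, against 7.32%. *H2afj* had 2 and 2 reads and *H3f3a* 0 and 1 in the *Eef1g*-cKO libraries. *Cenpa*, the H3 variant of centromeres, fell from 53.1 and 79.0 FPKM to 25.4 and 23.3 (log2 fold change -1.38, limma adjusted p = 0.0451), and was not called in DESeq2 (adjusted p = 0.0587). *H2afx*, which encodes the H2AX that is phosphorylated at DNA breaks, was the most abundant of the 9, at 1480 and 3414 FPKM in control against 4660 and 3779 in *Eef1g*-cKO (log2 fold change 0.90, limma adjusted p = 0.248). *H3f3b* overlapped, at 127 and 194 against 139 and 196 FPKM, and *H2afz* had 10.6 and 12.8 FPKM against 0 and 6.88 (limma adjusted p = 0.192).

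Of 17 genes that make and process histone mRNA 1 was increased by unadjusted p, against 7.32% of all genes, and 0 decreased, against 16.3%. The gene called was *Cstf2*, a cleavage factor subunit (17.4 and 22.9 against 43.2 and 39.5 FPKM, limma adjusted p = 0.0683). *Slbp* was at 131 and 178 FPKM in control against 241 and 242 in *Eef1g*-cKO, higher without overlap but by 0.66 on the log2 scale (limma adjusted p = 0.119), and *Npat* and *Casp8ap2*, factors of the histone locus body, overlapped between groups. Of 24 histone chaperone genes, 1 was increased and 1 decreased by adjusted p, against 2.87% and 4.97% of all genes. *Rbbp7* rose, from 98.0 and 126 FPKM to 291 and 299 (log2 fold change 1.40, limma adjusted p = 0.0319), and *Tonsl* fell, from 32.7 and 32.8 to 13.8 and 8.74 (log2 fold change -1.49, limma adjusted p = 0.0489). *Nasp*, the chaperone of H3 and H4 that is abundant in testis, was at 753 and 838 against 621 and 712 FPKM and was not called (limma adjusted p = 0.468). Of 5 markers of pachytene cells tested, 1 was increased and 1 decreased by unadjusted p, against 7.32% and 16.3% of all genes. Linker histone *Hist1h1t*, the testis H1, rose from 388 and 301 FPKM to 1458 and 1354 (log2 fold change 2.04, limma adjusted p = 0.0236), and *Piwil1* had 80 and 16 reads in control but 1 and 2 in *Eef1g*-cKO (limma adjusted p = 0.161).

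Markers of other testis cells were scanned in the same way. Sertoli cell markers summed to 1180 and 292 RPM in control against 259 and 191 RPM in *Eef1g*-cKO, with 2 of 9 decreased by unadjusted p, against 16.3% of all genes. Peritubular cell markers summed to 294 and 264 RPM against 89.3 and 100.5 RPM, with 3 of 6 decreased by unadjusted p, against 16.3%, and 1, *Col1a1*, by adjusted p, against 4.97%. Spermatid markers summed to 10.5 and 29.6 RPM against 4.47 and 14.7 RPM, and Leydig cell markers to 7.26 and 11.6 RPM against 8.93 and 4.90 RPM. None of the 6 macrophage and 5 blood markers was among the genes of the table. The part of these cells in the histone values was not tested.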

How the data were processed

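Ribo-seq was measured in 2 control and 2 *Eef1g*-cKO libraries of sorted leptotene/zygotene spermatocytes, with fragments of 26 to 34 nt selected on a gel. The authors deposited 1 table with FPKM per gene and library, computed on the deposited gene length, and size-factor normalized counts (a signal, made by the authors by dividing a gene's reads by the factor of its library). Within 0.01 of a whole read, 100% of these values were whole multiples of the step of their library, and the reads recovered gave back 100% of the FPKM within a relative tolerance of 0.001. No gene listed had under 10 reads in total. The authors' own mean, log2 fold change, standard error, test score, p-value and adjusted p-value columns were deposited in the same table and were not used. The methods name trimming, filtering and alignment, and the submitters' processing notes list cutadapt, Bowtie and STAR and the builds mm10 and hg38. The counting program, its annotation, its use of strand and its handling of reads that fit several genes are not given in the sources used here.

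Members were all genes whose symbol matched the histone pattern. Members and gene lists were chosen with earlier results of these data known. The genes named are both testis genes, the 3 other genes of each family with the highest mean FPKM, members called by unadjusted p (at most 10 per direction), the extremes of each family, *Eef1g*, and fixed or called members of the lists; others were named for their place in a pair, a cluster or a sequence class after their values were seen.

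The main test was limma 3.58.1 (R 4.3.3, lmFit and eBayes with trend, two-sided) on log2(FPKM + 1) without covariates, over genes whose mean was 1 FPKM or more. For low genes a fold change on this scale can be smaller or larger than in edgeR. *Zbtb16*, with 6 and 9 reads in *Eef1g*-cKO, stood at -2.07 in limma against -2.26 in edgeR. *Hist1h3e*, with 0 and 5 reads there, stood at -2.69 against -0.93. Alternatives were edgeR 4.0.16 (filterByExpr, TMM, quasi-likelihood) and DESeq2 1.42.0 on recovered reads, other pseudocounts, filters, scalings and priors, a replicate block, and leaving out each library. The fits were also run on simulated libraries with a fixed dispersion (spread beyond counting error) of 0.05, scored by unadjusted p. That run does not bear on the calls by adjusted p. Sums are in RPM, reads scaled to 1000000 counted reads. Shares carry Wilson intervals (scipy 1.17.1, 95%), which cover counting error only, since PCR copies are not independent molecules. Fitted fold changes of 3 members with no more than 3 reads in either *Eef1g*-cKO library entered the fits and medians and are drawn as grey or hollow points, but are not read as results. Sequences and positions are from RefSeq on GRCm38.p6, whose exon length equalled the deposited gene length for 37 of 50 members, so the annotation may not be the authors'. Windows of 30 bases (26 and 34 as alternatives) were matched exactly on both strands of the primary chromosomes. Windows of coding sequence alone were added after the values were seen.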

Additional observations from a re-analysis of the deposited data

How the results depend on the processing

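The number of members called by adjusted p, 4 increased and 4 decreased, depended on the processing. In limma with a pseudocount of 0.1 FPKM it was 0 and 0 (8 and 7 by unadjusted p), and with an untrended prior it was 0 and 0 (9 and 6 by unadjusted p), the latter with 0 calls in the whole table. Increased members numbered 8 in edgeR, 7 in DESeq2 and 8 with libraries centred on their median, while decreased members numbered 2 with that centring and 1 with no filter on low values. In each of edgeR, DESeq2 and the median-centred fit the same 4 increased members were among those called. Leaving out each library in turn gave 0 to 6 increased and 0 to 8 decreased members by adjusted p, and 6 to 11 increased and 0 to 9 decreased by unadjusted p. Median centring raised the median log2 fold change of all genes by 0.21, and TMM by 0.06.

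The deviations of same-numbered libraries from their group means had a correlation of -0.0080. With 2 libraries per group this value cannot decide whether the replicate numbers mark pairs. With a replicate block 7 members were increased and 7 decreased by adjusted p, against 4.05% and 7.85% of all genes (2.87% and 4.97% without the block).

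The median log2 fold change of H3 genes was 0.64 in edgeR. With each library left out it ranged from -0.13 to 0.74 for H3, and from -0.55 to 0.22 for H2B. The log2 ratio of summed H2A reads was 1.29 without *Hist3h2a*, and that of H2B was -1.0 without *Hist1h2ba*. With each library left out the log2 ratios of the sums ranged from 0.061 to 0.80 for H2B, 0.33 to 0.72 for H3 and -0.025 to 0.65 for H4. Single genes near 0 changed sign. With median centring *Npat* stood at 0.067 and *Casp8ap2* at 0.071. With each library left out *Hist1h2ab* ranged from -0.059 to 0.54, *Hist1h4c* from -0.15 to 0.45, *Hist1h4d* from -0.0092 to 0.66, *H3f3b* from -0.23 to 0.37, *Npat* from -0.38 to 0.082 and *Casp8ap2* from -0.40 to 0.11. The fitted value of *Hist1h2ae*, which rested on 0 and 3 reads in *Eef1g*-cKO and is not read as a change, ranged from -3.47 to 0.36. The cause of these changes was not tested, apart from leaving out the named gene or library. Depth limits the low members most, as the median over members was 156 and 109 reads in the control libraries but 15 and 22.5 in the *Eef1g*-cKO libraries.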
